A study of Mus musculus with 8 samples.

Results

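The 32 genes described here are markers and regulators of neural tube progenitors, found by symbol among the 55573 genes of the deposited table of the mouse posterior trunk. They were taken from a fixed list of names and grouped by the position at which their products are known to act: 11 dorsal genes including the roof plate, 5 intermediate genes, 7 ventral genes including the floor plate, 4 genes that receive and transmit the Hedgehog signal, and 5 genes of progenitors at all levels. All 32 were present, each in 1 row. Poly(A) RNA was sequenced from posterior trunks, cut off between somites 12 and 13, of C57BL/6 embryos at embryonic day 9.5 from matings of heterozygotes for a Prtg knockout allele. There were 2 wild-type (WT), 3 heterozygous (Prtg+/-, Het) and 3 homozygous (Prtg-/-, KO) libraries, and n is 2, 3 and 3 throughout. Which part of Prtg the allele removes is not stated, and the labels name neither litters nor sexes. The tests reflect no more than the variation among these libraries, part of which may be technical.

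The neural tube is patterned along its dorsoventral axis by opposing signals. Sonic hedgehog from the notochord and floor plate induces ventral transcription factors, bone morphogenetic proteins and WNT proteins from the roof plate induce dorsal ones, and mutual repression between these factors sharpens the progenitor domains from which distinct neuron classes arise. SoxB1 factors and Notch effectors such as Hes5 keep cells in the progenitor state. Several of these genes are also active outside the neural tube, among them Pax3 and Pax7 in the dermomyotome, Shh and Foxa2 in notochord and gut endoderm, and the GLI factors in somites and limb buds. In RNA from whole tissue, fewer cells of a type and less RNA per cell cannot be told apart.

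Total counts per library lay between 16874860 and 17511964. Prtg, the targeted gene, was at 317 and 386 CPM (counts scaled to a common library size) in WT, 240 to 282 CPM in Het and 237 to 268 CPM in KO, where whole-gene counts cannot show which exons were lost. Of the head markers listed, Otx2 and Six3 had 0 to 2 reads per library and Egr2 had 0, while Emx2, which is also active in the urogenital system, was at 8.42 to 11.8 CPM. Of the heart markers listed, Nppa had 0 to 2 reads per library, while Myl7 was at 0.468 to 1.26 CPM and Tbx5 at 1.72 to 4.3 CPM. The tailbud gene T (114 to 153 CPM) and the somite gene Meox1 (92.5 to 165 CPM) were abundant. Library KO 1-3 stood apart from the other 7. It lay at 38.8 on the first principal component, which held 34.5% of the variance, against -9.5 to 0 for the others. Its 11 somite and presomitic markers summed to 304 CPM, against 393 to 444 CPM elsewhere. It held the lowest value of 8 of the 28 members tested and the highest of 6. Other libraries also held many extremes, with the highest value of 7 members in WT 1-2 and of 7 in Het 1-1, and the lowest of 6 in Het 2-5. For most members described at length, values are given with and without KO 1-3. The first number of a library's name, called the column set, has no stated meaning. Xist, an RNA of the inactive X, reached 803 to 1100 CPM in every library of the first set (WT 1-2, Het 1-1 and KO 1-3) and in Het 2-4, and 1.52 to 3.57 CPM in the remaining 4, so that set and sex are partly confounded. Each genotype held libraries with high and with low Xist, so those of 1 genotype were not all repeats of 1 embryo.

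Per unit of exonic length, 7 members had a mean of at least 10 FPKM (CPM per kilobase of exonic length), 15 lay from 1 to 10 FPKM and 10 below 1 FPKM. The highest level was that of Irx3, with a mean of 32.3 FPKM over the 8 libraries and a range of 27.8 to 39.5 FPKM that overlapped no other member. Sox3, a SoxB1 factor of neural progenitors, followed at 17.4 to 21.4 FPKM. The Hedgehog receptor gene Ptch1 (15.8 to 22.0 FPKM) and the GLI genes Gli1 (13.2 to 20.1 FPKM) and Gli3 (13.5 to 16.3 FPKM) came next, with ranges that overlapped their neighbours in this order. Zic2 (11.6 to 15.5 FPKM) was the highest dorsal gene and Shh (7.58 to 11.6 FPKM) the highest ventral gene.

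Several members were near the limit of detection. Gsx1, a homeobox gene of dorsal interneuron progenitors, had 0 reads in every library, which at this depth allows up to 0.171 to 0.178 CPM (3 reads, counting error only). Its relative Gsx2 had 4 reads in WT 2-1, 1 in Het 2-4, 1 in KO 2-3 and 0 in the other 5 libraries. Atoh1, which specifies the dorsalmost interneurons, had 1 read in KO 1-3, 1 in KO 2-3 and 0 elsewhere. Dbx1, which marks progenitors of the V0 interneurons, had 15 reads in WT 1-2, 0 in WT 2-1 and 2 to 8 in the others. These 4 genes did not pass the expression filter and were not tested. Of those tested, Nkx2-2, a gene of the V3 domain beside the floor plate, was at 0.115 to 1.17 CPM, Nkx6-2 at 0.119 to 0.943 CPM, and Dbx2 at 0.176 to 0.746 CPM, so that their changes could not be measured closely.

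**Figure D1:**
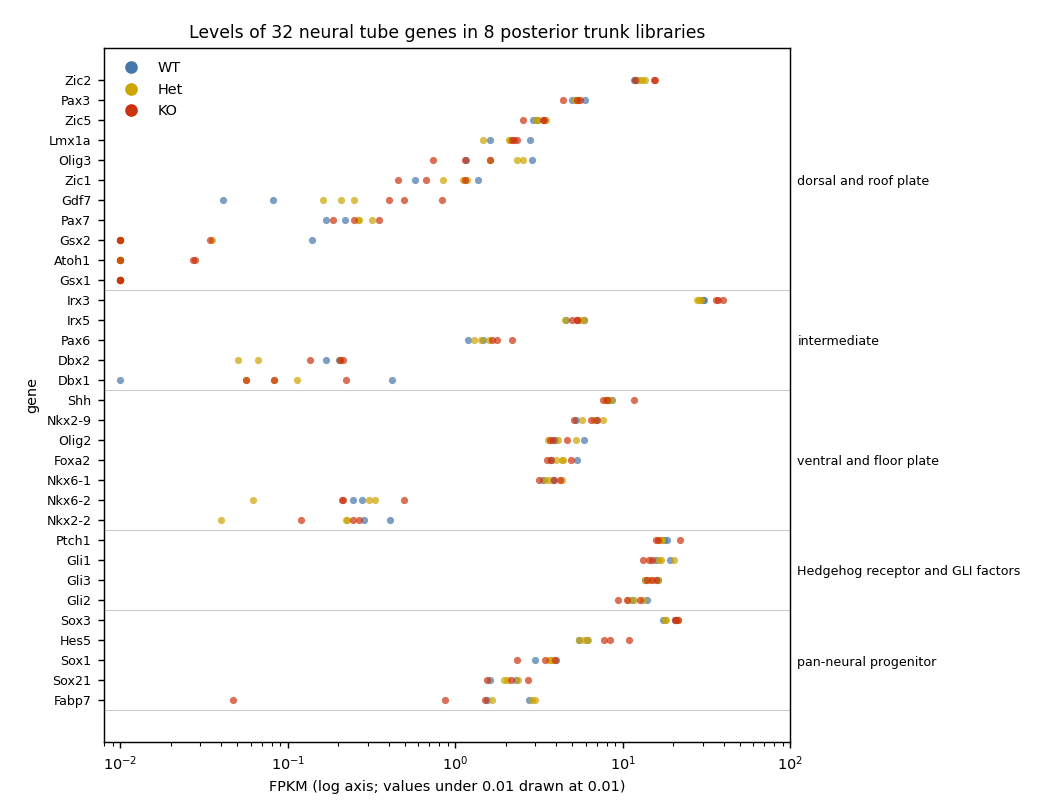
Level of each of the 32 members in FPKM (log axis) in every library, grouped by domain, where each point is 1 library coloured by genotype and values below 0.01 are drawn at 0.01. Irx3 has the highest level at 27.8 to 39.5 FPKM, while Gsx1, Gsx2, Atoh1 and Dbx1 lie at the low end of their groups.

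The comparison of KO with the other genotypes addresses progenitor patterning in trunks homozygous for the Prtg knockout allele. In edgeR's quasi-likelihood test over 16262 genes, Irx3 was the 1 member that rose, against Het and against the mean of WT and Het, and 0 members fell. The share of all tested genes called higher was 0.0615% in KO against Het and 0.0738% in KO against the mean, and the shares called lower were 0.129% and 0.258%. In KO against WT 0 members were called, where 0% of all tested genes were called higher and 0.0369% lower. Gdf7 passed the expression filter through the KO libraries and is left out of the shares that follow, which are over the other 27 members. At an unadjusted p below 0.05 there were 4 members higher (14.8%) and 1 lower (3.70%) in KO against WT, beside 3.82% and 3.38% of all tested genes. DESeq2 called 0 members in KO against WT, where it called 0.56% of all tested genes. In KO against Het there were 3 higher (11.1%) and 3 lower (11.1%), beside 6.05% and 4.80%. Against the mean of WT and Het, 3 members were higher (11.1%) and 3 lower (11.1%) at an unadjusted p below 0.05, beside 6.81% and 5.21% of all tested genes. The KO libraries lay apart from all 5 others in 5 members, above them in Irx3, Pax6 and Hes5 (11.1%) and below them in Gli1 and Fabp7 (7.41%), beside 4.21% and 4.41% of all tested genes. The KO libraries lay above both WT libraries in 4 members and below both in 3, beside 11.2% and 10.5% of all tested genes, and above all Het libraries in 4 and below them in 3, beside 8.26% and 8.50%. The comparisons share libraries and are not independent of each other.

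Irx3, an Iroquois homeobox gene whose product sets the dorsal limit of the motor neuron domain and which is also active in paraxial mesoderm and limb, lies on chromosome 8 (91798525 to 91802067, minus strand, GRCm38). It was at 83.4 and 84.4 CPM in WT, at 80.6, 78.8 and 76.9 CPM in Het and at 109, 98.9 and 103 CPM in KO. All 3 KO libraries were above all others, and the WT libraries were both above the Het ones. Irx3 rose in KO against Het (log2 fold change 0.39 ± 0.06 SE, edgeR adjusted p = 0.0330) and against the mean of WT and Het (0.35 ± 0.05, edgeR adjusted p = 0.0174). Against WT the value was 0.30 ± 0.06 (edgeR adjusted p = 0.163). It was as large in each column set, with a difference of 0.41 in the first, where KO is KO 1-3 alone, and 0.33 in the second. Without KO 1-3 Irx3 was still called, against the mean (0.31 ± 0.05, edgeR adjusted p = 0.0131) and against Het (0.36 ± 0.05, edgeR adjusted p = 0.0120). Without any 1 of the WT or Het libraries it was not, at values of 0.34 to 0.36 and edgeR adjusted p from 0.0518 (without Het 1-1) to 0.0995 (without WT 1-2). Against Het it was not called without any 1 of the WT or Het libraries or without KO 2-2, at values of 0.38 to 0.43 and edgeR adjusted p from 0.0582 (without WT 1-2) to 0.225 (without Het 2-4). Of the exonic bases of Irx3, 4.5% overlap the antisense gene Irx3os, which had 34 to 58 reads per library against 1336 to 1851 for Irx3.

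The neighbouring gene Irx5, 556 kb from Irx3 and also of the Iroquois family, did not share this pattern. It was at 18.2 and 14.4 CPM in WT, 18.2, 17.3 and 14.2 CPM in Het and 15.4, 16.6 and 16.5 CPM in KO. The KO libraries lay within the range of the others, with a value of -0.02 ± 0.12 against their mean (edgeR adjusted p = 0.964), and the difference between Irx3 and Irx5 was not tested. Pax6, a paired-box gene of intermediate progenitors, was at 17.0 and 13.9 CPM in WT, 18.5, 15.2 and 16.7 CPM in Het and 19.4, 25.3 and 20.8 CPM in KO. Its KO libraries were above all others, by the least in KO 1-3, and it was short of the threshold (0.44 ± 0.12 against the mean, edgeR adjusted p = 0.213). Without KO 1-3 the Pax6 value was 0.52 ± 0.12 (edgeR adjusted p = 0.138). Dbx2 was at 0.39 ± 0.46.

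**Figure D2:**
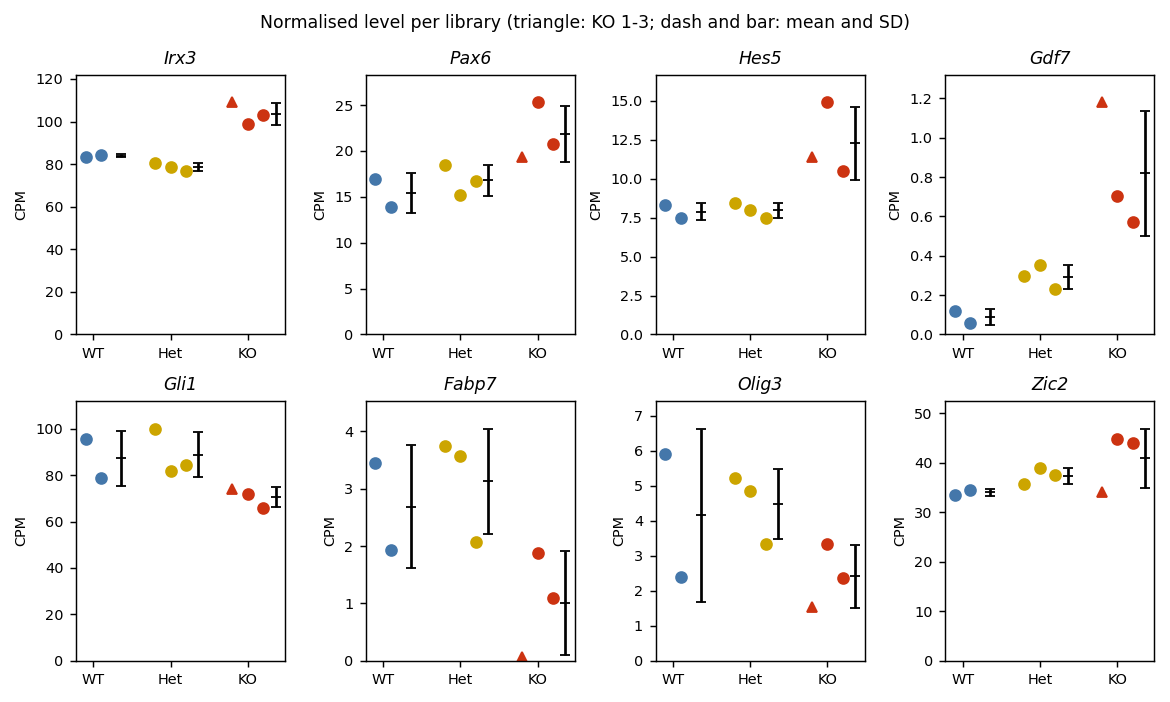
Level in CPM of 8 members in each library by genotype, on axes that start at 0, where a triangle marks KO 1-3 and the dash and bar give the mean and SD of a genotype. Irx3, Pax6, Hes5 and Gdf7 lie higher and Gli1 and Fabp7 lower in the 3 KO libraries than in the other 5, while Olig3 and Zic2 overlap.

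Among the genes of progenitors at all levels, Hes5, a repressor induced by Notch signalling that keeps progenitors undifferentiated, was at 8.29 and 7.49 CPM in WT, 8.44, 7.97 and 7.48 CPM in Het and 11.4, 14.9 and 10.5 CPM in KO. The 5 WT and Het libraries were close together and all KO libraries above them. The value was 0.63 ± 0.14 against the mean of WT and Het, short of the threshold in edgeR (adjusted p = 0.0985) and past it in DESeq2 (adjusted p = 0.0148). Without KO 1-3 it was 0.68 ± 0.14 (edgeR adjusted p = 0.0916). The antisense gene Gm20421 overlaps 31.8% of the exonic bases of Hes5 and had 3 to 17 reads per library against 128 to 254 for Hes5, and without strand the reads of the overlap cannot be assigned. The Hes5 promoter is shown because it is a textbook target of the Notch mediator RBPJ and Hes5 has the highest fitted value of the members above 1 CPM in every library. The window is the 250 bases before the RefSeq start site (chr4:154960673-154960922, plus strand, GRCm38.p6), from a table of 32851 RefSeq promoter windows of 300 bases each in which 26 of the 32 members matched. Capitals mark the RBPJ motif GTGGGAA, or its reverse complement, and the SOX core in the spelling CATTGT, the latter chosen after the sequence was seen. Other spellings were not searched, and the CTTTGT in this window is unmarked.
Hes5: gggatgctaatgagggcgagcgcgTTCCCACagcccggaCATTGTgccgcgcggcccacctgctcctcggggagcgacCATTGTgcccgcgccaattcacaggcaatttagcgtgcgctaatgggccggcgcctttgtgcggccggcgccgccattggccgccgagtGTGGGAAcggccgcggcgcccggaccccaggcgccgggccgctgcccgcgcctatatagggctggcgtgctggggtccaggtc
The marked RBPJ motifs begin 226 and 83 bases and the CATTGT sites 211 and 172 bases before the start site. On either strand GTGGGAA occurs in 6.38% of all windows and, of the 26 members matched, in Hes5 alone, and CATTGT in 12.6% of all windows and in 4 members (Dbx1, Dbx2, Hes5 and Olig2). The GLI motif GACCACCCA (0.253% of all windows), the SMAD palindrome GTCTAGAC (0.213%) and the E-box CAGCTG (16.3%) occur in 0 of the 26. These are matches of letters in 1 window per start site and show no binding.

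The SoxB genes gave no call. Sox3 was at 42.4 and 35.8 CPM in WT, 44.3, 37.4 and 36.8 CPM in Het and 42.9, 43.9 and 42.5 CPM in KO, within the range of the others (0.13 ± 0.08, edgeR adjusted p = 0.555). Sox1, a SoxB1 factor, was at -0.15 ± 0.16 and Sox21, a SoxB2 factor that promotes differentiation, at 0.06 ± 0.19. Both had their lowest level in KO 1-3 (11.4 and 5.83 CPM), and without it the values were 0.03 ± 0.12 and 0.25 ± 0.16. Fabp7, a fatty acid binding protein of radial glia that is also made by neural crest derivatives, was at 3.44 and 1.93 CPM in WT, 3.74, 3.57 and 2.07 CPM in Het and 0.0589, 1.87 and 1.09 CPM in KO. The KO libraries lay below all others, but KO 2-2 only narrowly, and the lowest value is 1 read in KO 1-3. The value of -1.52 ± 0.56 (edgeR adjusted p = 0.327) moved to -0.97 ± 0.35 (edgeR adjusted p = 0.416) without KO 1-3.

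Dorsal genes had values on both sides of 0, and 0 of the 8 tested were called. Gdf7, the roof plate ligand of the bone morphogenetic protein family, had 2 and 1 reads in WT, 5, 6 and 4 in Het and 20, 12 and 10 in KO. The 3 genotypes did not overlap, but the levels were low, at 0.0585 to 1.18 CPM, and the gene passed the expression filter through the KO libraries, so its place among the tested genes is no support. Its 42 KO reads against 3 WT reads gave a ratio of 9.28 per read sequenced (95% interval 2.97 to 46.8, exact, counting error only), and against the 15 Het reads 2.78 (1.51 to 5.39). The intervals pool the reads of a genotype and leave out the variation between its libraries, so they are no test of genotype. The fitted value against the mean was 2.29 ± 0.47 (edgeR adjusted p = 0.0874), and without KO 1-3 the gene did not pass the filter. Lmx1a, the homeobox gene that specifies the roof plate, was at 5.44 to 9.46 CPM in WT, 4.98 to 7.25 CPM in Het and 7.36 to 7.96 CPM in KO. Its KO libraries lay within the WT range and above all Het libraries (0.14 ± 0.19, edgeR adjusted p = 0.797), and without KO 1-3 the value was 0.17 ± 0.21.

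Olig3, a basic helix-loop-helix gene of dorsal progenitors, was at 5.90 and 2.40 CPM in WT, 5.23, 4.86 and 3.34 CPM in Het and 1.53, 3.34 and 2.35 CPM in KO. The KO libraries were at the low end together with WT 2-1, and the value of -0.84 ± 0.33 (edgeR adjusted p = 0.352) was -0.60 ± 0.33 without KO 1-3. Zic1, a zinc finger gene of dorsal neural tube and somites, was also lowest in KO 1-3, with 2.59 CPM there, 3.27 CPM in WT 2-1 and 3.79 to 7.82 CPM elsewhere. Its value of -0.42 ± 0.32 was -0.16 ± 0.30 without KO 1-3. Zic2 was at 33.5 and 34.6 CPM in WT, 35.7, 39.0 and 37.5 CPM in Het and 34.1, 44.8 and 44.0 CPM in KO. KO 1-3 lay among the WT and Het libraries and the other KO libraries above them, and the value was 0.20 ± 0.09 (edgeR adjusted p = 0.424), or 0.32 ± 0.07 (edgeR adjusted p = 0.101) without KO 1-3. Zic5, which starts 9.76 kb from Zic2, was at 0.00 ± 0.12, Pax3 at -0.08 ± 0.10 and its relative Pax7, at 0.994 to 2.06 CPM, at 0.16 ± 0.28.

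**Figure D3:**
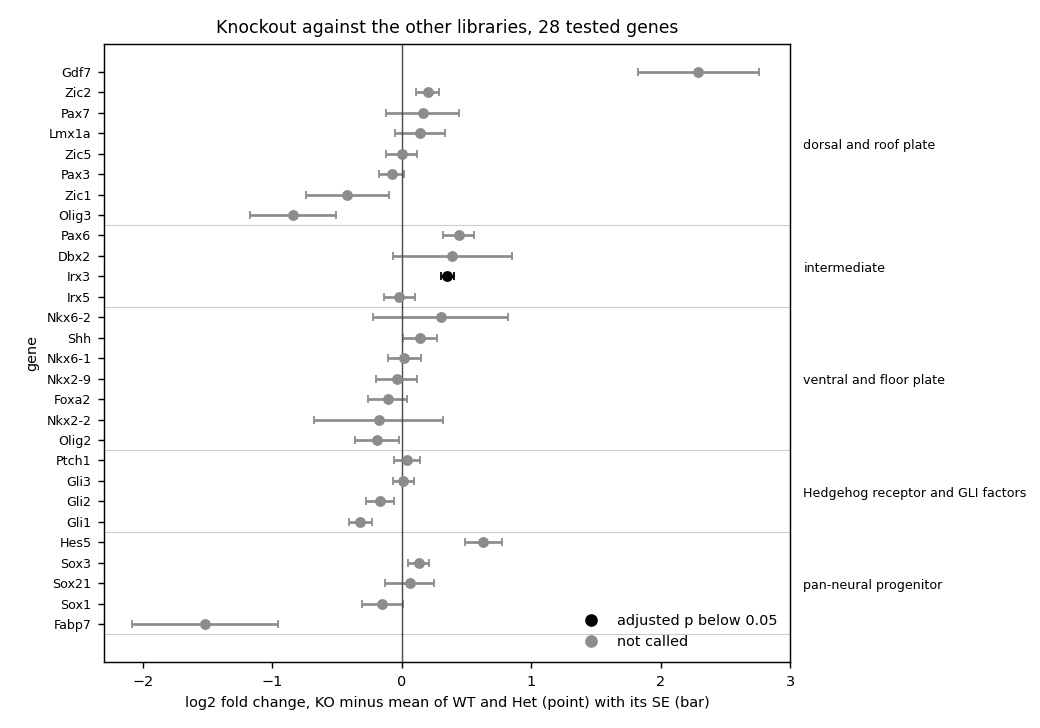
Log2 fold change of KO against the mean of WT and Het for the 28 members tested, with the SE as a bar, ordered within each domain. Irx3 is the 1 gene called (black, 0.35), and the largest values, of Gdf7 (2.29) and Fabp7 (-1.52), belong to genes with few reads and wide bars.

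Of the 7 ventral genes 0 were called in any comparison by edgeR or DESeq2, and their values against the mean ran from -0.19 to 0.30. Over the comparisons DESeq2 called 0.0123% (Het against WT) to 1.25% (KO against the mean) of all tested genes. Shh was at 23.2 and 24.6 CPM in WT, 24.2, 22.4 and 22.8 CPM in Het and 33.1, 21.6 and 22.8 CPM in KO. KO 1-3 was alone in being high, and the value of 0.14 ± 0.13 (edgeR adjusted p = 0.717) turned to -0.08 ± 0.09 without it. Foxa2, a forkhead gene of the floor plate, was at 8.88 and 12.6 CPM in WT, 10.2, 9.43 and 10.5 CPM in Het and 11.6, 8.89 and 8.32 CPM in KO, with overlapping genotypes (-0.11 ± 0.15, or -0.27 ± 0.15 without KO 1-3). Notochord and endoderm also make Shh and Foxa2, and 8 markers of these tissues summed to 316 CPM in KO 1-3 and 243 to 308 CPM elsewhere. Of the 8, KO 1-3 was the highest library for Foxa1, Sox17, Cdh1 and Epcam, and lay within the range of the others for the notochord genes T (119 CPM against 114 to 153 CPM), Noto and Chrd and for Foxa3. Cdh1 was at 71.9 CPM against 43.9 to 52.6 CPM and Sox17 at 20.9 CPM against 11.4 to 16.7 CPM, and their part in the Shh value was not tested.

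Olig2, which specifies motor neuron progenitors, was at 14.8 and 9.94 CPM in WT, 13.3, 10.4 and 9.09 CPM in Het and 9.25, 11.7 and 9.70 CPM in KO. The highest libraries were WT 1-2 and Het 1-1 of the first column set, and the value was -0.19 ± 0.17 (edgeR adjusted p = 0.692), or -0.12 ± 0.18 without KO 1-3. Nkx2-9, a ventral homeobox gene next to Pax9 on chromosome 12, was at 8.76 and 6.67 CPM in WT, 9.69, 8.44 and 7.25 CPM in Het and 8.19, 6.44 and 8.90 CPM in KO (-0.04 ± 0.16). Its genotypes overlapped. Nkx6-1, a homeobox gene of the broad ventral domain, was at 0.02 ± 0.13. Nkx2-2 was at 0.817 and 1.17 CPM in WT, 0.654, 0.645 and 0.115 CPM in Het and 0.766, 0.702 and 0.344 CPM in KO. Both WT libraries lay above all Het and KO libraries, at low levels, and the value against WT was -0.71 ± 0.58 (edgeR adjusted p = 0.818). Against the mean Nkx2-2 was at -0.18 ± 0.50 and Nkx6-2 at 0.30 ± 0.52, with an SE wider than the value in each.

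Of the genes that receive and transmit the Hedgehog signal, Ptch1 encodes the receptor and Gli1 a transcriptional effector, and both are direct targets whose level serves as a readout of the pathway. Ptch1 was at 249 and 260 CPM in WT, 241, 241 and 243 CPM in Het and 311, 230 and 225 CPM in KO. KO 1-3 was the highest library and the other KO libraries were the lowest, so the value of 0.04 ± 0.10 (edgeR adjusted p = 0.895) turned to -0.13 ± 0.05 (edgeR adjusted p = 0.433) without KO 1-3. Gli1 was at 95.5 and 78.9 CPM in WT, 100, 81.9 and 84.5 CPM in Het and 74.2, 71.9 and 65.9 CPM in KO. All 3 KO libraries were below the other 5, KO 1-3 included. The Gli1 value of -0.32 ± 0.09 was not called by edgeR (adjusted p = 0.206) and was called by DESeq2 (adjusted p = 0.0399), and it was -0.35 ± 0.09 (edgeR adjusted p = 0.184) without KO 1-3.

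Gli2, the main activator of the family, was at 96.3 and 77.9 CPM in WT, 90.1, 80.1 and 74.0 CPM in Het and 64.6, 87.3 and 73.1 CPM in KO. Its genotypes overlapped (-0.17 ± 0.11, edgeR adjusted p = 0.559), and without KO 1-3 the value was -0.07 ± 0.10. Gli3, mainly a repressor, was at 155 and 131 CPM in WT, 156, 139 and 129 CPM in Het and 134, 151 and 143 CPM in KO (0.01 ± 0.08). Of 12 further Hedgehog genes, listed without regard to how they moved, 0 were called against the mean, and their median was -0.05. The smallest p among them was that of the coreceptor gene Boc (0.24 ± 0.08, edgeR adjusted p = 0.289).

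**Figure D4:**
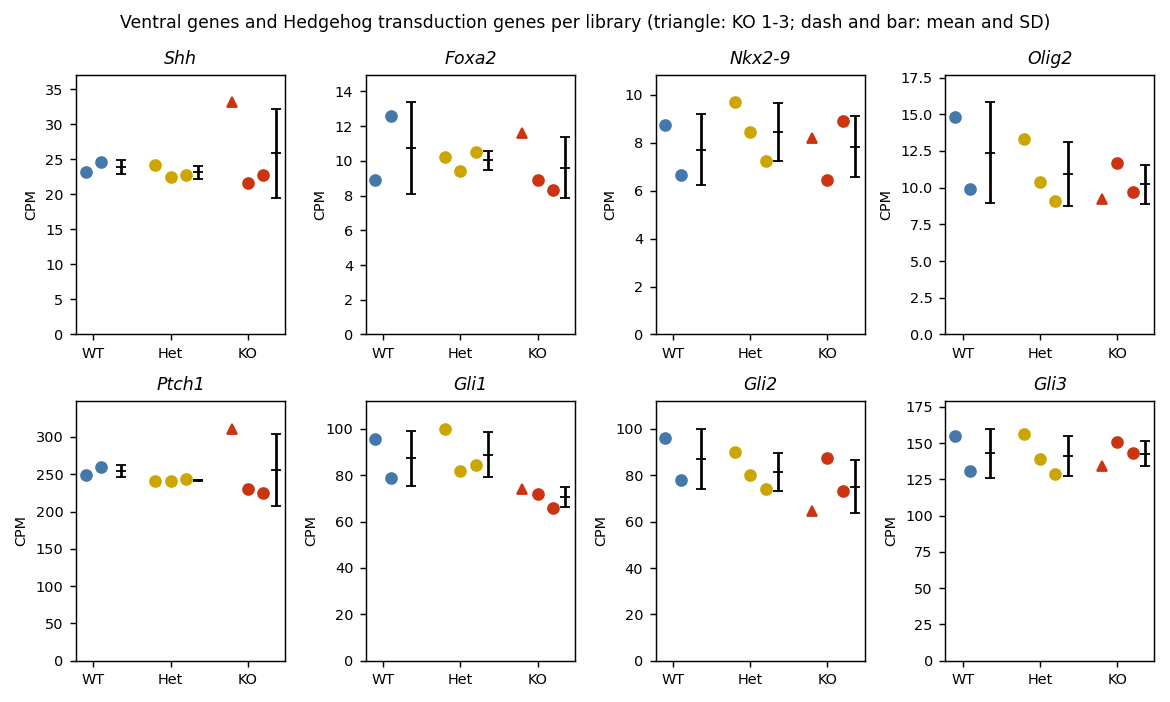
Level in CPM of 4 ventral genes (top) and 4 genes that receive and transmit the Hedgehog signal (bottom) in each library by genotype, on axes that start at 0, where a triangle marks KO 1-3 and the dash and bar give the mean and SD. KO 1-3 is the highest library for Shh (33.1 CPM) and Ptch1 (311 CPM) but lies with the other KO libraries below all others for Gli1.

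Set side by side as domains, the differences of KO from the WT and Het mean had a median of 0.07 over the 8 dorsal genes tested (4 above 0 and 4 below), 0.37 over the 4 intermediate genes (3 above and 1 below) and -0.04 over the 7 ventral genes (3 above and 4 below). The medians were -0.08 for the 4 Hedgehog transduction genes and 0.06 for the 5 progenitor genes, and 0.01 over all tested genes. The intermediate value rests on Irx3, Pax6 and the low Dbx2, and no test of the difference between domains was made. Without KO 1-3 the dorsal, intermediate and ventral medians were 0.02, 0.31 and -0.12, with all 4 intermediate genes above 0 and all 7 ventral genes below, against 0.00 over all genes. Gdf7 was not among the 7 dorsal genes tested there, and with all libraries the median of those 7 was 0.00. The level of a domain in a library, as the median over its genes of log2(CPM + 1) relative to the WT and Het mean, was 0.24, 0.15 and 0.30 for the intermediate genes in KO and -0.13 to 0.17 in the other libraries, so that KO 2-2 fell within their range. The dorsal level was -0.17 in KO 1-3 and -0.22 in WT 2-1 and 0.02 to 0.16 elsewhere. The ventral level was 0.16 in KO 1-3 and -0.11 and -0.05 in the other KO libraries, against -0.10 to 0.06 in WT and Het.

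**Figure D5:**
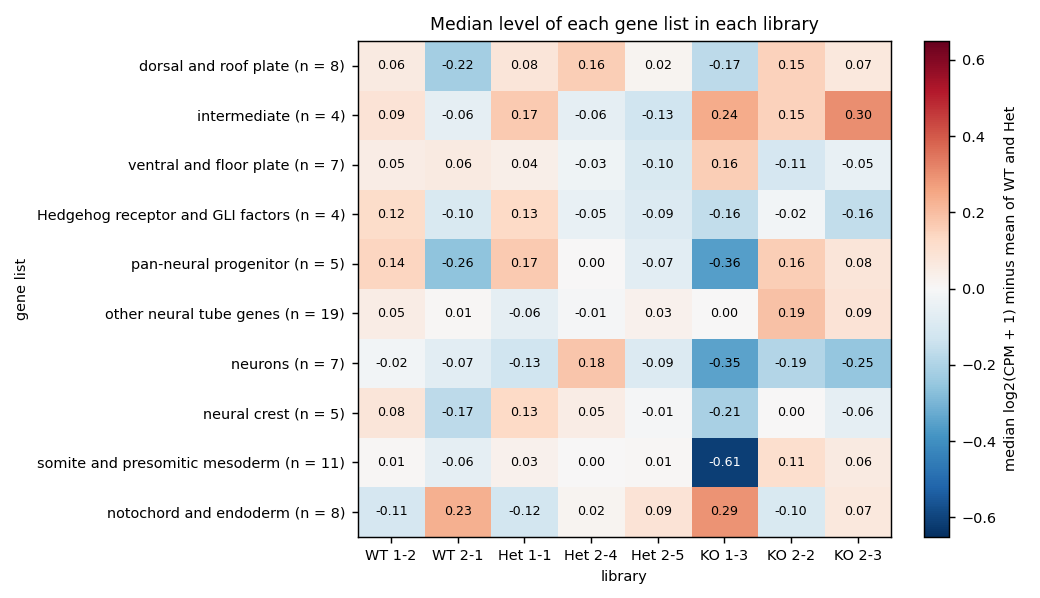
Median level of 5 member groups and 5 groups of marker genes in each library, as the difference of log2(CPM + 1) from its WT and Het average, with the number of tested genes per group in brackets. The intermediate genes are at 0.15 to 0.30 in KO, and KO 1-3 is low in somite and presomitic genes (-0.61) and progenitor genes (-0.36) and high in notochord and endoderm genes (0.29). WT 2-1 lies near KO 1-3 in progenitor genes (-0.26) and in notochord and endoderm genes (0.23). The neuron genes are at -0.35 to -0.19 in KO and -0.13 to 0.18 in the other libraries.

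Of 22 further neural tube genes, 19 were tested, and against the mean 1 rose and 0 fell, with a median of 0.14. The gene that rose was Msx1, a homeobox target of bone morphogenetic proteins in dorsal neural tube that is also active in limb bud and lateral mesoderm, from 95.5 and 99.0 CPM in WT and 75.1, 90.0 and 91.8 CPM in Het to 142, 120 and 140 CPM in KO with all 3 KO libraries above the other 5 (0.55 ± 0.08, edgeR adjusted p = 0.0159). It was called without KO 1-3 (0.51 ± 0.08, edgeR adjusted p = 0.0161) but not without WT 1-2, WT 2-1 or Het 2-4, at 0.54 to 0.57 and edgeR adjusted p from 0.0512 to 0.0766. Sox2, a general neural progenitor factor, was at 42.6 to 53.7 CPM in WT and Het and 49.2 to 55.3 CPM in KO, with overlapping groups. Nes, an intermediate filament gene of progenitors that is also made in somites and vessels, was at 112 ± 12.0 CPM in WT, 120 ± 8.09 CPM in Het and 87.3 ± 16.9 CPM in KO (SD; -0.41 ± 0.11, edgeR adjusted p = 0.211), or -0.26 ± 0.07 without KO 1-3. The 7 neuron markers summed to 39.6 to 40.1 CPM in KO and 46.8 to 55.7 CPM in the others, with 0 called. Without Isl1 the other 6 summed to 20.5 to 22.1 CPM in KO and 16.9 to 23.3 CPM in the others, which overlap. As a median level over the 7, computed as for the domains, KO was at -0.35, -0.19 and -0.25. The others were at -0.13 to 0.18, so these levels did not overlap. Stmn2 (0.48 ± 0.20) and Elavl4 (0.27 ± 0.18) were above 0 and the other 5 below. Isl1 had the smallest p of them (-0.68 ± 0.14, edgeR adjusted p = 0.0801) and the highest level, at 17.6 to 19.1 CPM in KO and 25.4 to 38.8 CPM in the others, but it is also made in mesoderm and endoderm. The 6 neural crest markers summed to 102 to 105 CPM in KO and 100 to 121 CPM in the others, again with 0 called. The highest of them, Ets1, was at 60 to 64.8 CPM in KO and 67 to 76.9 CPM in the others. Snai2 went the other way, at 18.9 to 20.3 CPM in KO and 14.9 to 18.5 CPM in the others. The part of these other cell types in the member values was not tested.

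Loss of 1 allele is addressed by Het against WT, where edgeR called 0 of the 28 members, as did DESeq2. Of all tested genes edgeR called 0% in either direction and DESeq2 0.0123%. At an unadjusted p below 0.05 there were 0 members in either direction, beside 0.91% of all tested genes higher and 0.885% lower. Over the 27 members without Gdf7, the Het libraries lay above both WT libraries in 2 and below both in 3, beside 9.19% and 8.92% of all tested genes. The values of well-measured members were small, with Irx3 at -0.09 ± 0.06, Hes5 at 0.01 ± 0.17, Pax6 at 0.12 ± 0.15, Gli1 at 0.03 ± 0.10 and Shh at -0.05 ± 0.16. The widest values were those of Gdf7 (1.66 ± 0.79, from 3 WT and 15 Het reads) and Nkx2-2 (-1.07 ± 0.59). Medians were 0.11 for the dorsal, -0.03 for the intermediate and -0.09 for the ventral genes, beside 0.00 over all tested genes.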

How the data were processed

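The deposited table holds raw read counts of every gene in 8 libraries, with exonic lengths and positions; 8 further columns of per-library values were not used, and FPKM were computed from the counts. The tools listed in the submitters' processing notes, without their order, are HTSeq 0.6.1, HISAT2 2.0.1 and cutadapt 1.9.1, with GRCm38 (mm10), and per the labels' protocols the library kit is one that, as named, does not mark strand. Column names give the genotype and numbers that match no sample number, so columns were assigned to genotypes only. Libraries of a genotype differed by 4.55 to 24.7 times the counting variance in every pair, so none were merged. edgeR 4.0.16 (R 4.3.3) was run on all 8 libraries with TMM scaling, the default expression filter (minimum count 10, 16262 genes kept) and 1 mean per genotype, and calls were made at a Benjamini-Hochberg adjusted p below 0.05 over all tested genes, two-sided. Values without a named comparison set KO against the average of WT and Het, log2 ± SE from the quasi-likelihood F statistic. CPM are TMM-scaled. Within-set differences are of log2(CPM + 0.5). Both tools were run on simulated counts with planted changes larger than that of Irx3, so those runs do not show how often a change of its size is found. Values in every library were given for called members, the 2 with the smallest p per domain, Shh, Foxa2, Ptch1, Gli1 and the next most abundant member per domain, and Lmx1a beside them was chosen after its values were seen. Exon overlaps are from GENCODE M21 (GRCm38). The members, lists and tests were chosen with earlier results of these data known. DESeq2 1.42.0, other filters and scalings, covariates and leaving out each library were alternatives. Shares and medians without Gdf7 and the neuron sum without Isl1 were added after the data were seen. Values of some further marker genes are not reported here.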

Additional observations from a re-analysis of the deposited data

How the results depend on the processing

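With no filter on low counts edgeR called 1 member in KO against WT (Gdf7), 4 in KO against Het and 6 in KO against the mean of WT and Het, in place of 0, 1 and 1. The shares of all 28823 genes then tested that were called rose too, to 0.711%, 1.52% and 1.78%. DESeq2 called 3 in the last comparison (Irx3, Hes5 and Gli1), beside 1.25% of all tested genes. In a fit of the Het and KO libraries alone 0 were called in KO against Het (Irx3 at 0.39, edgeR adjusted p = 0.0655), beside 0.0643% of all genes tested. Leaving out 1 Het or KO library gave 0 to 1 called member in KO against Het and in KO against the mean, and 0 in KO against WT and Het against WT. The share of all genes called in those fits ran from 0.0124% to 0.304% in KO against Het and from 0.0556% to 0.384% in KO against the mean. It was 0.0247% to 0.174% in KO against WT and at most 0.00621% in Het against WT. The ventral median ran from -0.12 to 0.08 when 1 library was left out, the dorsal one from -0.07 to 0.10 and the intermediate one from 0.28 to 0.42. With a covariate for Y-linked expression Irx5 changed sign to 0.03 and Nkx2-9 to 0.04. Leaving out 1 library gave ranges across 0 for 15 members, none of them called, among them Irx5 (-0.10 to 0.07), Nkx2-2 (-0.41 to 0.10), Nkx2-9 (-0.14 to 0.08), Shh (-0.08 to 0.25), Foxa2 (-0.27 to 0.02), Ptch1 (-0.13 to 0.13) and Gli3 (-0.05 to 0.07), and also Pax3, Pax7, Zic5, Lmx1a, Nkx6-1, Nkx6-2, Sox1 and Sox21. The cause of these changes was not tested. Where a WT library is left out, the lone one is assumed to vary like the other genotypes. With column set as a block Irx3 was called in the same comparisons (0.39 and 0.35, edgeR adjusted p = 0.0180 and 0.0135). No paired analysis was possible because the columns carry none of the replicate numbers of the labels. The 8 members with a mean below 1 CPM rest on 0 to 20 reads per library.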

Other observations

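Ratios of reads within a library do not depend on the scaling between libraries. They are given as values for pairs chosen after the results were seen, with no test. There were 7.06, 5.95 and 6.21 Irx3 reads per Irx5 read in the KO libraries, against 4.42 to 5.87 in the WT and Het libraries, so that KO lay above the others, narrowly so for KO 2-2 beside WT 2-1. Relative to Sox2 the Irx3 ratio was 2.21, 1.79 and 2.02 in KO and 1.46 to 1.98 in the others, which overlap. Hes5 stood at 0.266, 0.339 and 0.247 reads per Sox3 read in KO and 0.191 to 0.213 in the others, and Pax6 at 0.717, 0.764 and 0.604 reads per Pax3 read in KO and 0.448 to 0.554 in the others, both without overlap. Gli1 stood at 0.238, 0.313 and 0.294 reads per Ptch1 read in KO and 0.304 to 0.415 in the others, where KO 2-2 and WT 2-1 overlap. Olig2 stood at 0.701, 1.18 and 0.801 reads per Nkx6-1 read in KO and 0.845 to 1.23 in the others, which overlap. Hes5 and Pax6 alone already lay above the others in KO, and no share of such ratios over all genes was computed.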
